A study of Mus musculus with 2 samples.

Results

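The genes described are 40 type I interferon-stimulated genes, named one by one and all found among the 55487 gene symbols of a single-cell RNA sequencing run of sorted mouse cecum leukocytes. They were listed by name, with no threshold on their values. They comprised 16 RNA-binding and antiviral effectors, 3 genes of the ubiquitin-like modifier pathway, 3 signal transducers, 7 nucleic acid sensors and 11 other interferon-induced genes. The study asked what state cecum immune cells take when Trpv1-expressing neurons are activated. Cells bearing CD45, the surface protein of leukocytes, came from 2 Trpv1-ADC mice and 2 littermate CTRL mice, all male and 101 days old. Per the labels, all 4 mice had received AAV by neonatal intraperitoneal injection and 7 injections of CNO, the ligand of designer receptors, given on alternate days. Trpv1-Cre.B6 and Trpv1-WT.B6 are the labelled strains, which are not assigned to mice, and neither the cargo of the AAV nor the meaning of ADC is stated. Trpv1 marks heat- and capsaicin-sensing sensory neurons, and a Trpv1-Cre allele acts in cells in which the Trpv1 gene is or was active. Each mouse carried its own DNA-coded anti-CD45 hashtag (tags 7 and 9 for Trpv1-ADC 1 and 2, tags 1 and 3 for CTRL 1 and 2), and all went through 1 droplet run. The mouse was the replicate (n = 2 per group), and numbers only name the mice.

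Type I interferons are secreted antiviral cytokines. They bind a receptor made of Ifnar1 and Ifnar2, whose kinases activate transcription factors, among them Stat2. Stat2 and Irf9 are parts of the ISGF3 complex, which binds the interferon-stimulated response element (ISRE) in the promoters of target genes. In the gut, signals from the microbiota are known to maintain a low tonic interferon response.

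The ISRE was looked for in promoters from RefSeq (build GRCm38.p6), 250 bases before to 50 bases after each start, as GAAANNGAAA or its reverse complement TTTCNNTTTC. Of the 31 members with a promoter entry, 16 held the motif (51.6%), against 1079 of 27025 genes with an entry (3.99%). Oas2, Mx1, Usp18, Ifi27l2a, Dhx58, Zbp1, Rtp4, Parp14 and Ifi204 had no entry. The 3 promoters below belong to the ubiquitin-like modifier Isg15 and to the pair of members that passed a test in a cell class. They are given 5′ to 3′ on the gene's strand, with motif matches in capitals. The windows are chr4:156200769-156201068 (minus strand) for Isg15, chr1:173491269-173491568 (minus) for Ifi206 and chr5:114922990-114923289 (plus) for Oasl1.
Isg15: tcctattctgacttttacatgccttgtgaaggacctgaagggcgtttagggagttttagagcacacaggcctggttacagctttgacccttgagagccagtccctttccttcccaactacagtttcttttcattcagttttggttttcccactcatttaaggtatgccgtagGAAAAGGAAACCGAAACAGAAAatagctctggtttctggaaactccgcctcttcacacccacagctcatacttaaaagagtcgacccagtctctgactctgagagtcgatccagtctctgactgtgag
Ifi206: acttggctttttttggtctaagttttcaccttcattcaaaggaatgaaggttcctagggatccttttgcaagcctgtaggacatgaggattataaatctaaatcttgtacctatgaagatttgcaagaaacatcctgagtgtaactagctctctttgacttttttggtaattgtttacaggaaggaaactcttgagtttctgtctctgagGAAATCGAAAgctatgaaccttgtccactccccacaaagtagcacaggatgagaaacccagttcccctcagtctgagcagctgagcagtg
Oasl1: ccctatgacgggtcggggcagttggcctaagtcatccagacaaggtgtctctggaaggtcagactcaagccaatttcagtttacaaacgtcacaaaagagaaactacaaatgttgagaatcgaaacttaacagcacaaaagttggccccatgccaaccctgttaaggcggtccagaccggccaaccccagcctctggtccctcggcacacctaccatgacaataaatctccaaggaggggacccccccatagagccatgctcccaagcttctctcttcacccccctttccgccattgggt
The Isg15 window held 3 overlapping matches, the Ifi206 window held 1, and the Oasl1 window held 0. A match is a description of the letters and not of a bound site. On other lists, 18 of 42 further type I interferon-induced genes with an entry held the motif (42.9%), as did 11 of 19 interferon gamma-induced genes (57.9%), against 0 of 8 receptor and kinase genes.

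After removal of tag doublets and predicted doublets, 17519 cells remained, 4430 and 4531 from Trpv1-ADC 1 and 2 and 4393 and 4165 from CTRL 1 and 2. They held 27586172, 29645678, 29905834 and 27998012 UMIs (unique molecules), and median depths of the 4 mice were 5553 to 5689 UMIs per cell. The median mitochondrial share was 2.47% to 2.58%. Cells were clustered without the 40 members and named from marker genes, so each name below stands for cells that resemble the type. A UMI of Ptprc, the CD45 gene, was present in 97.7% of 16839 cells in immune classes and unnamed clusters and in 68.5% of 680 cells in fibroblast, endothelial and epithelial clusters, at median depths of 5555 and 12280 UMIs. Of 32 classes and unnamed clusters, 14 had at least 20 cells in every mouse and were tested.

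Over all cells summed per mouse, 39 of the 40 members were higher in Trpv1-ADC than in CTRL mice on average, as were 50% of all genes, and none passed the test. The members' median log2 fold change was 0.32, beside 0.00 over the 18783 genes tested, and all 40 passed the low-count filter. The edgeR quasi-likelihood test with Benjamini-Hochberg adjustment called 0 members at an adjusted p under 0.05, where it called 0.245% of all genes. The lowest adjusted p among them was 0.102 (Ifi203). At an unadjusted p under 0.05 edgeR gave 9 members, beside 18.2% of all genes, and DESeq2 called 2 after adjustment, Ifi203 and Ifi213, beside 4.62% of all genes. Both Trpv1-ADC mice lay above both CTRL mice in 21 members, beside 24.0% of all genes, and below both in 1. In a sum over all cells, more cells of a type and more RNA per cell cannot be told apart. With each class given the same weight in every mouse, the 40 members summed to 1951 and 2022 UMIs per 1000000 UMIs (CPM) in Trpv1-ADC 1 and 2, against 1288 and 1868 CPM in CTRL 1 and 2.

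The average hid a difference between the CTRL mice. CTRL 1 was the lowest of the 4 mice in 39 members, beside 24.8% of all genes, and Ifi204 was the exception. Relative to its own mean over the mice, the median member stood at 1.14 in Trpv1-ADC 1 and 1.08 in Trpv1-ADC 2, against 0.718 in CTRL 1 and 1.04 in CTRL 2. The summed level of 16 core members (the Ifit and Oas family genes, Isg15, Mx1, Rsad2, Usp18, Ifi44 and Cmpk2) was 223 and 226 CPM in Trpv1-ADC mice, against 134 and 224 CPM in CTRL 1 and CTRL 2. CTRL 2 exceeded both Trpv1-ADC mice in 9 members and at least the lower of them in 19. The shares of all genes were not computed for these counts of CTRL 2, which are a description only. Set against CTRL 2 alone, 28 members were higher in Trpv1-ADC mice (median log2 fold change 0.10). Set against CTRL 1 alone, 39 were higher (median 0.63) and edgeR called 3, Ifi206, Ifi213 and Ifi27l2a, beside 0.352% of all genes.

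**Figure D1:**
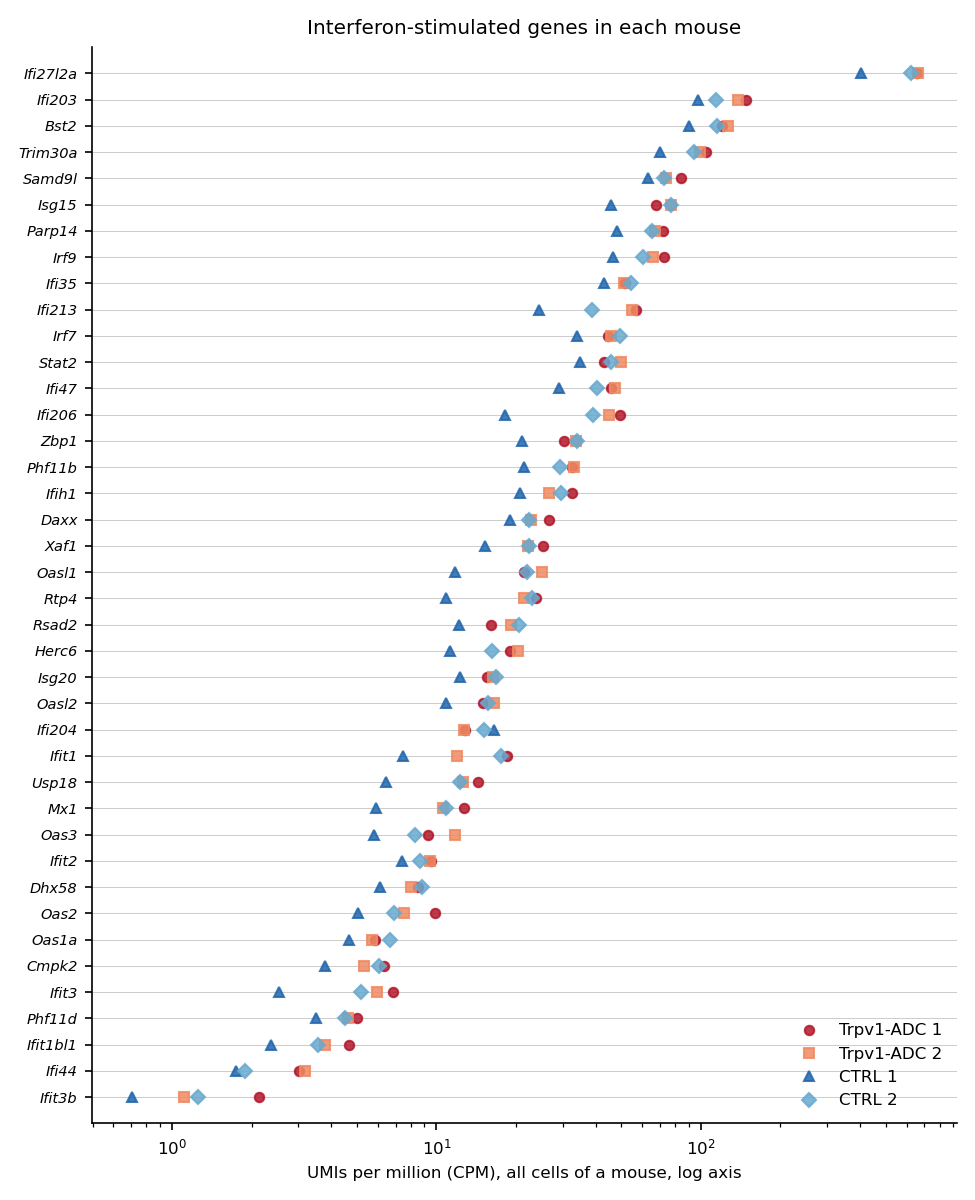
Level of each of the 40 members in each mouse, in CPM over all cells of that mouse, on a log axis with genes ordered by mean level. CTRL 1 is the leftmost point in 39 of 40 members, and CTRL 2 lies at or above the lower Trpv1-ADC mouse in 19.

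**Figure D2:**
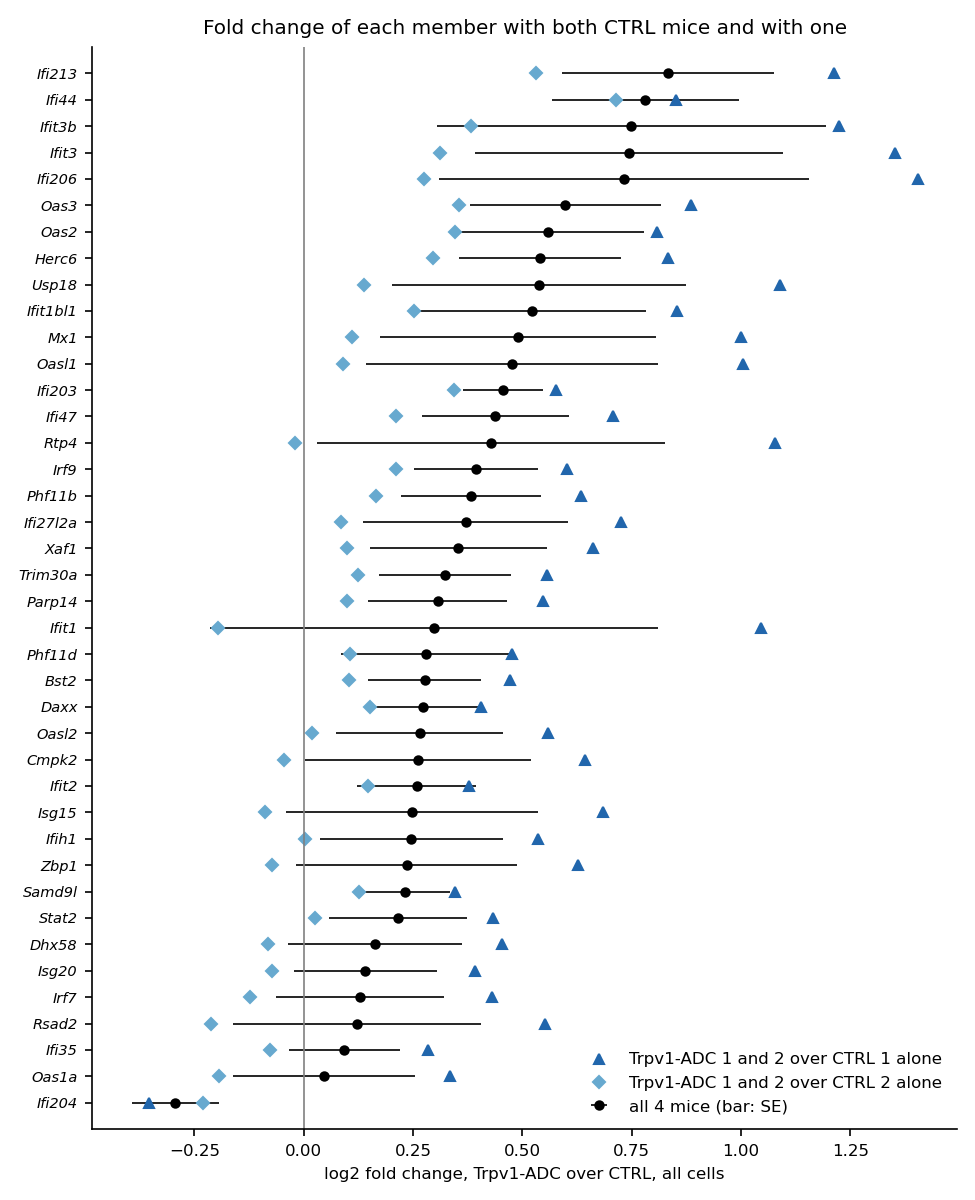
Log2 fold change of each member, Trpv1-ADC over CTRL, over all cells. Circles with bars are the fit of all 4 mice with its standard error, triangles the fit against CTRL 1 alone (median 0.63) and diamonds that against CTRL 2 alone (median 0.10).

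The RNA-binding and antiviral effectors all had positive log2 fold changes over all cells, between 0.05 and 0.75 with a median of 0.29, and in 7 of the 16 both Trpv1-ADC mice were above both CTRL mice. CTRL 1 was the lowest mouse in all 16. Ifit1, which binds viral RNA lacking a methylated cap, had 18.4 and 11.9 CPM in Trpv1-ADC 1 and 2, against 7.46 and 17.5 CPM in CTRL 1 and 2. The groups overlapped, as they did for Rsad2, which makes a chain-terminating nucleotide (16.02 and 19.1 CPM in Trpv1-ADC mice, against 12.2 and 20.5 CPM in CTRL mice). Oas3, a synthetase of the second messenger that activates RNase L, had 9.32 and 11.7 CPM in Trpv1-ADC mice, against 5.79 and 8.29 CPM in CTRL mice. These did not overlap, and the log2 fold change of 0.60 ± 0.22 (SE) did not pass (edgeR adjusted p = 0.243). Bst2, which tethers budding virions to the cell surface, had 120 and 127 CPM in Trpv1-ADC mice, against 90.2 and 115 CPM in CTRL mice (0.28 ± 0.13, edgeR adjusted p = 0.338). Samd9l, a cytosolic restriction factor, had 84.1 and 73.7 CPM in Trpv1-ADC mice, against 63.1 and 72.8 CPM in CTRL mice.

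The 3 ubiquitin-like modifier genes stood at log2 fold changes of 0.25 to 0.54. Isg15, the modifier itself, had 67.5 and 76.9 CPM in Trpv1-ADC 1 and 2, against 45.6 and 77.2 CPM in CTRL 1 and 2. CTRL 2 was thus the highest mouse and CTRL 1 the lowest (0.25 ± 0.29, edgeR adjusted p = 0.705). Herc6, the mouse ligase that attaches ISG15, had 19.0 and 20.4 CPM in Trpv1-ADC mice, against 11.2 and 16.2 CPM in CTRL mice. Usp18, which removes ISG15 and dampens receptor signalling, had 14.3 and 12.6 CPM in Trpv1-ADC mice, against 6.42 and 12.3 CPM in CTRL mice. The groups did not overlap for either gene, and neither passed (edgeR adjusted p = 0.230 and 0.462).

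Of the signal transducers, Irf9 had 72.8 and 66.2 CPM in Trpv1-ADC mice, against 46.5 and 60.4 CPM in CTRL mice, without overlap (0.39 ± 0.14, edgeR adjusted p = 0.249). Stat2 had 42.9 and 49.8 CPM in Trpv1-ADC mice, against 34.8 and 45.8 CPM in CTRL mice. Irf7, the factor that amplifies interferon alpha production, had 44.5 and 45.9 CPM in Trpv1-ADC mice, against 34.0 and 49.5 CPM in CTRL mice. The groups overlapped for Stat2 and Irf7.

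The nucleic acid sensors held both the highest and the lowest fold changes of the 40 members. Ifi213, of the p200 family that includes DNA-binding sensors, had 56.7 and 54.9 CPM in Trpv1-ADC mice, against 24.4 and 38.9 CPM in CTRL mice (0.83 ± 0.24, edgeR adjusted p = 0.213). Ifi206 of the same family had 49.5 and 44.8 CPM in Trpv1-ADC mice, against 18.1 and 39.2 CPM in CTRL mice (0.73 ± 0.42, edgeR adjusted p = 0.450). Ifi203 had 148 and 138.5 CPM in Trpv1-ADC mice, against 97.6 and 114 CPM in CTRL mice (0.46 ± 0.09). None of these overlapped between the groups. Ifi204, a further p200 gene and the mouse relative of human IFI16, was the member that was lower, at 12.8 and 12.7 CPM in Trpv1-ADC mice, against 16.6 and 15.1 CPM in CTRL mice (-0.29 ± 0.10, edgeR adjusted p = 0.215). It was highest in monocyte-like cells, at 237 ± 73.9 CPM (SD, n = 4 mice) against 0.253 ± 0.293 CPM in CD8 T cell-like cells. Monocyte-like cells made up 2.01% and 1.28% of the cells of Trpv1-ADC mice, against 3.80% and 3.41% of those of CTRL mice. Within monocyte-like cells Ifi204 had 213 and 331 CPM in Trpv1-ADC mice, against 154 and 248 CPM in CTRL mice, with overlap. All 4 genes lie on chromosome 1 and are close relatives, so reads may have been split between them. The RNA helicase sensors Ifih1 and Dhx58 and the Z-form nucleic acid sensor Zbp1 had fold changes of 0.25, 0.16 and 0.24, with overlapping groups.

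The 11 other members were all higher in Trpv1-ADC mice on average, by 0.09 to 0.78 on the log2 scale, without overlap in 8. Ifi27l2a, which codes for a small hydrophobic protein, held 32.9% of the members' UMIs. It had 655 and 661 CPM in Trpv1-ADC mice, against 404 and 624 CPM in CTRL mice (0.37 ± 0.23, edgeR adjusted p = 0.477). Trim30a, a ubiquitin ligase that restrains inflammatory signalling, had 104.5 and 99.0 CPM in Trpv1-ADC mice, against 70.3 and 93.9 CPM in CTRL mice. Parp14, an ADP-ribosyltransferase, had 72.2 and 66.9 CPM in Trpv1-ADC mice, against 48.4 and 65.3 CPM in CTRL mice. In each, CTRL 1 was far below and CTRL 2 just below the Trpv1-ADC mice. Ifi35 had 51.8 and 51.2 CPM in Trpv1-ADC mice, against 42.9 and 54.6 CPM in CTRL mice, with CTRL 2 highest. Ifi44 had 3.01 and 3.17 CPM in Trpv1-ADC mice, against 1.74 and 1.89 CPM in CTRL mice, and there the CTRL mice were alike (0.78 ± 0.21, edgeR adjusted p = 0.156). Ifit3 with Ifit3b, Ifit1 with Ifit1bl1, and Phf11b with Phf11d are pairs of related genes, and whether reads were split between the genes of a pair was not tested.

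The members' levels differed widely between cell classes. Monocyte-like cells had the highest mean of the 14 tested classes for 24 members, naive CD8 T cell-like cells for 5, non-immune cells for 3, B cell-like and cDC1-like cells for 2 each, and intraepithelial-type T cell-like, cDC2-like, ILC2-like and ILC3-like cells for 1 each. Rsad2 averaged 119 ± 60.5 CPM in monocyte-like cells and 25.9 ± 14.0 CPM in cDC2-like cells, the next class (SD, n = 4 mice). Irf7 averaged 158.5 ± 104 CPM in monocyte-like cells and 118 ± 24.9 CPM in ILC3-like cells, levels within each other's spread. Isg15 was also highest in monocyte-like cells (188.5 ± 118 CPM), followed within that spread by CD4 T cell-like cells (137 ± 38.7 CPM), and lowest in B cell-like cells (14.2 ± 9.41 CPM). Ifi27l2a averaged 1576 ± 394 CPM in monocyte-like and 1139 ± 358 CPM in regulatory T cell-like cells, which overlap, and 69.6 ± 38.5 CPM in ILC3-like cells. Trim30a was at 179 ± 61.6 CPM in monocyte-like cells and 46.0 ± 3.33 CPM in non-immune cells, and Parp14 at 108 ± 29.9 CPM in monocyte-like and 27.5 ± 9.33 CPM in cDC1-like cells.

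Other members had their peak outside monocyte-like cells. Ifi206 and Ifi213 were highest in naive CD8 T cell-like cells (72.1 ± 35.7 and 88.9 ± 25.0 CPM), then in naive CD4 T cell-like cells (59.7 ± 19.5 and 66.5 ± 20.2 CPM), within the spread between mice. Both were lowest in cDC1-like cells, at 5.67 ± 5.23 and 6.95 ± 5.55 CPM. Samd9l was highest in B cell-like cells at 153 ± 16.8 CPM, above naive CD8 T cell-like cells at 80.3 ± 18.8 CPM. Bst2 was highest in cDC2-like cells, at 350.0 ± 88.3 CPM, and Ifi203 in ILC3-like cells, at 187 ± 34.6 CPM. At a finer clustering (Leiden resolution 2), 31 of the 181 cDC2-like cells formed a cluster led by Siglech and named plasmacytoid dendritic cell-like, a type of which Bst2 is itself a marker. Siglech had 1 and 4 UMIs in that cluster in Trpv1-ADC mice, against 24 and 40 UMIs in CTRL mice. There Bst2 averaged 1028 ± 356 CPM, against 196 ± 58.4 CPM in the cells that were still cDC2-like (SD, n = 4 mice). Ifi35 was highest in cDC1-like cells (80.8 ± 11.8 CPM) and Irf9 in B cell-like cells (85.8 ± 22.0 CPM). Oasl1, which represses translation of the Irf7 transcript in mice, averaged 56.8 ± 31.8 CPM in monocyte-like and 41.2 ± 18.4 CPM in B cell-like cells. These levels are a description, with no test.

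The summed core level in monocyte-like cells was 438 and 1114 CPM in Trpv1-ADC 1 and 2, against 399 and 707 CPM in CTRL 1 and 2. In naive CD8 T cell-like cells it was 228 and 153 CPM in Trpv1-ADC mice, against 69.2 and 274 CPM in CTRL mice, so that CTRL 1 was lowest and CTRL 2 highest. In B cell-like cells it was 110 and 203.5 CPM in Trpv1-ADC mice, against 50.3 and 108 CPM in CTRL mice, without overlap. In cDC2-like cells it was 207 and 442 CPM in Trpv1-ADC mice, against 168 and 158 CPM in CTRL mice, also without overlap. At the finer clustering it was 218 and 468 CPM in cDC2-like cells of Trpv1-ADC mice, against 156 and 203 CPM in those of CTRL mice. The monocyte-like class was made of 3 clusters whose mix differed. The one led by Ly6i, Ace and Cxcl10 formed 24.7% and 44.8% of the class in Trpv1-ADC mice, against 20.4% and 13.4% in CTRL mice. Its part in the monocyte values was not tested.

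**Figure D3:**
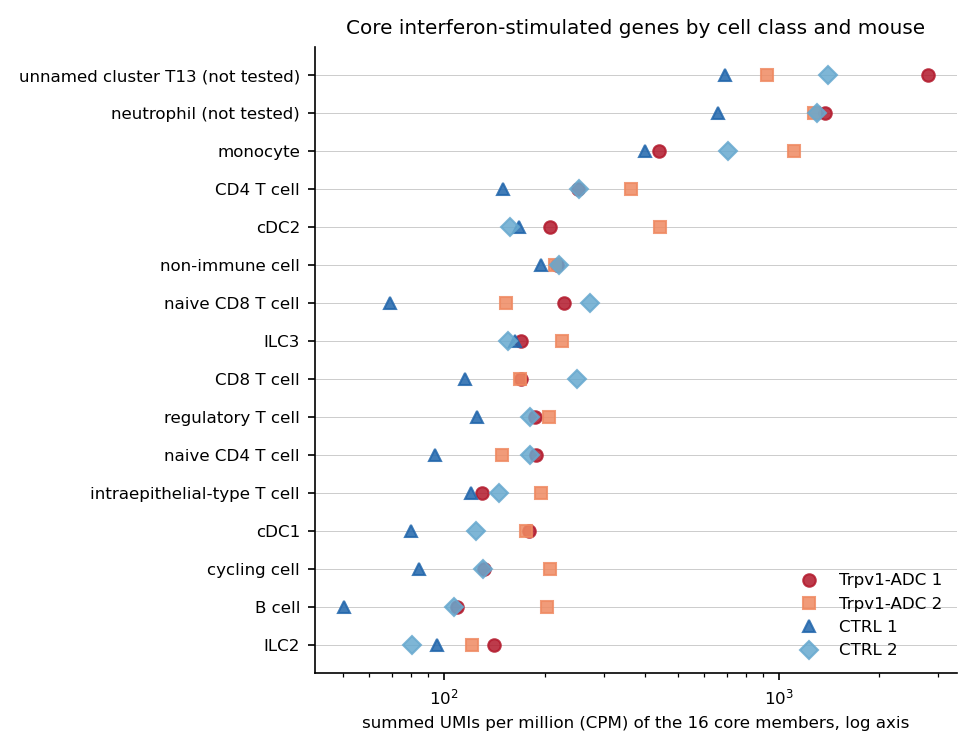
Summed level of the 16 core members, in CPM on a log axis, in each cell class (rows) and mouse (symbols). Monocyte-like cells lie highest among tested classes, and in naive CD8 T cell-like cells the points run from 69.2 CPM in CTRL 1 to 274 CPM in CTRL 2.

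Within classes, most members tested were again higher in Trpv1-ADC mice, while almost none passed. Of all genes tested, 48.6% to 51.3% were higher, depending on the class. The number of members tested ranged from 9 of 40 in ILC2-like to 36 in naive T cell-like cells. In B cell-like cells 32 of 33 were higher (median 0.55), 20 without overlap beside 18.0% of all genes there, and 15 had an unadjusted p under 0.05 beside 8.63%. edgeR with adjustment called 0 of them, beside 0.113% of all genes, and DESeq2, which gave 28 of the 33 no adjusted p, also called 0. Without the count filter edgeR called 11 members higher in B cell-like cells, beside 173 genes higher and 57 lower of 22886. With mouse number as a block it called 11 higher, beside 138 genes higher and 58 lower of 10600. In monocyte-like cells 33 of 35 were higher (median 0.59), edgeR called 0 beside 0.202% of all genes, and 9 had an unadjusted p under 0.05 beside 9.53%. Irf7 stood at 166.5 and 301 CPM in Trpv1-ADC mice, against 60.8 and 106 CPM in CTRL mice. That is without overlap (1.5 ± 0.38, edgeR adjusted p = 0.337). DESeq2 called Irf7 there, as 1 of the 9 members to which it gave an adjusted p, beside 1.38% of all such genes. At the finer clustering edgeR called 4 members higher in these cells, Irf7, Bst2, Ifi203 and Trim30a, beside 55 genes higher and 67 lower of 6945. Without the count filter it called the same 4, beside 66 genes higher and 81 lower of 18615. In naive CD4 and naive CD8 T cell-like cells 34 and 32 of 36 were higher, and CTRL 1 was lowest in 33 and 35 of them, beside 26.6% and 28.0% of all genes. In naive CD8 T cell-like cells CTRL 2 was above both Trpv1-ADC mice in 18 members, a count for which the share of all genes was not computed. Both naive classes came from 2 clusters whose mix differed. The second cluster formed 38.7% and 59.6% of naive CD4 T cell-like cells in Trpv1-ADC mice, against 13.9% and 27.1% in CTRL 1 and 2. In naive CD8 T cell-like cells it was 40.3% and 54.7% in Trpv1-ADC mice, against 6.68% and 32.9% in CTRL mice. Within the first cluster of each class 37 (CD4) and 33 (CD8) of the 40 members were higher on average in Trpv1-ADC mice, and CTRL 1 was lowest in 28 and 37. Within the second cluster 20 and 16 were higher, and CTRL 1, with 98 and 32 cells there, was lowest in 28 and 25. CD8 T cell-like cells (19 of 31 higher) and non-immune cells (20 of 35) were more mixed. Over the whole T lineage edgeR called 0 of 40 members beside 2.42% of all genes. At an unadjusted p under 0.05 it gave 7, beside 2065 of all 15765 genes. Without the count filter it called 12 higher, beside 372 genes higher and 602 lower of 29898. DESeq2 called Bst2 and Ifi213 beside 2.56%. Over the whole myeloid lineage edgeR called 0 of 38 beside 0.157%. At an unadjusted p under 0.05 it gave 10, beside 1251 of all 12086 genes. Without the count filter it called 3 higher, beside 195 genes higher and 262 lower of 25526. DESeq2, which gave 32 of the 38 members no adjusted p, called 0.

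A few members came near the threshold in a class. In regulatory T cell-like cells Ifi203 had 162 and 164.5 CPM in Trpv1-ADC mice, against 116 and 108 CPM in CTRL mice (0.53 ± 0.12, edgeR adjusted p = 0.0618). In ILC3-like cells, an innate lymphocyte class that supplies interleukin 22, Bst2 had 150.1 and 176.5 CPM in Trpv1-ADC mice, against 111 and 115 CPM in CTRL mice (edgeR adjusted p = 0.0928). The CTRL mice were alike and both below the Trpv1-ADC mice in these cases. Ifi203 passed there with HTODemux (30 genes higher and 44 lower of 9362) and at the finer clustering (15 and 17 of 9183). It passed also without the count filter (76 and 90 of 21487). With only tag doublets removed, or with mouse number as a block, it did not pass. Bst2 in ILC3-like cells passed without the count filter, beside 180 genes higher and 165 lower of 20877, and did not with the block. At the finer clustering 322 of the 777 ILC3-like cells kept that name and 454 fell in a cluster named NK or ILC1-like. The ones that kept it formed 48.6% and 49.8% of the class in Trpv1-ADC mice, against 33.2% and 33.8% in CTRL mice. In the finer ILC3-like class Bst2 had 215 and 234.5 CPM in Trpv1-ADC mice, against 158 and 177 CPM in CTRL mice. In the finer NK or ILC1-like class it had 90.3 and 105 CPM in Trpv1-ADC mice, against 74.4 and 68.8 CPM in CTRL mice.

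Oasl1 and Ifi206 rose in intraepithelial-type T cell-like cells, whose markers (Gzma, Cd160 and Itgae among them) are those of lymphocytes within the gut epithelium. They were 2 of 30 members tested, and in this class the test called 8.0% of all genes in either direction and 4.0% as higher, so the members' share of calls was near that of all genes. Oasl1 had 24.9 and 40.7 CPM in Trpv1-ADC 1 and 2, against 7.65 and 8.13 CPM in CTRL 1 and 2, from 35 and 46 UMIs against 19 and 26. Both Trpv1-ADC mice were more than 3 times as high as either CTRL mouse, and the log2 fold change was 1.96 ± 0.30 (edgeR adjusted p = 0.00308). It passed in each fit that left out 1 mouse (1.60 to 2.24). Ifi206 had 34.2 and 32.7 CPM in Trpv1-ADC mice, against 10.5 and 19.7 CPM in CTRL mice, from 48 and 37 UMIs against 26 and 63 (1.05 ± 0.29, edgeR adjusted p = 0.0436). Without CTRL 1 it was 0.70 and did not pass (edgeR adjusted p = 0.308). It did not pass in DESeq2 either (adjusted p = 0.138), and DESeq2 gave Oasl1 no adjusted p. The p200 relatives Ifi213 and Ifi203 did not overlap between groups and did not pass (edgeR adjusted p = 0.0587 and 0.0869).

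Other members differed in direction in these cells. Isg15 had 49.1 and 67.2 CPM in Trpv1-ADC mice, against 70.5 and 75.1 CPM in CTRL mice (-0.40, edgeR adjusted p = 0.167). At the finer clustering edgeR called Isg15 as lower in this class, beside 417 genes higher and 423 lower of 10280. In all, 19 of 30 members were higher, 10 without overlap beside 31.8% of all genes. Ifi44 had 0 UMIs in all 4 mice. The summed core level was 130 and 194.5 CPM in Trpv1-ADC mice, against 121 and 147 CPM in CTRL mice, with overlap. The class came from 2 clusters, and the larger of them formed 72.5% and 65.6% of it in Trpv1-ADC mice, against 61.7% and 59.8% in CTRL mice. There were 280 and 212 cells from Trpv1-ADC mice, against 444 and 582 from CTRL mice.

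The Oasl1 difference in intraepithelial-type T cell-like cells exceeded that in all other cells of the same mice by 1.58 ± 0.33 on the log2 scale (edgeR interaction test, adjusted p = 0.00268). That fit called 710 of 17684 genes (4.01%). It was run for this class because Oasl1 and Ifi206 had passed there, on the same counts, so it adds no independent support. Without CTRL 2 the excess was 1.04 and did not pass (edgeR adjusted p = 0.385). For Ifi206 the excess was 0.37 ± 0.26 (edgeR adjusted p = 0.553). In monocyte-like cells Oasl1 had 40.5 and 82.2 CPM in Trpv1-ADC mice, against 19.97 and 84.4 CPM in CTRL mice. In B cell-like cells it had 41.8 and 64.1 CPM in Trpv1-ADC mice, against 19.1 and 40.04 CPM in CTRL mice. The groups overlapped in monocyte-like cells and did not in B cell-like cells, where the gene did not pass (0.81 ± 0.42, edgeR adjusted p = 0.693).

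**Figure D4:**
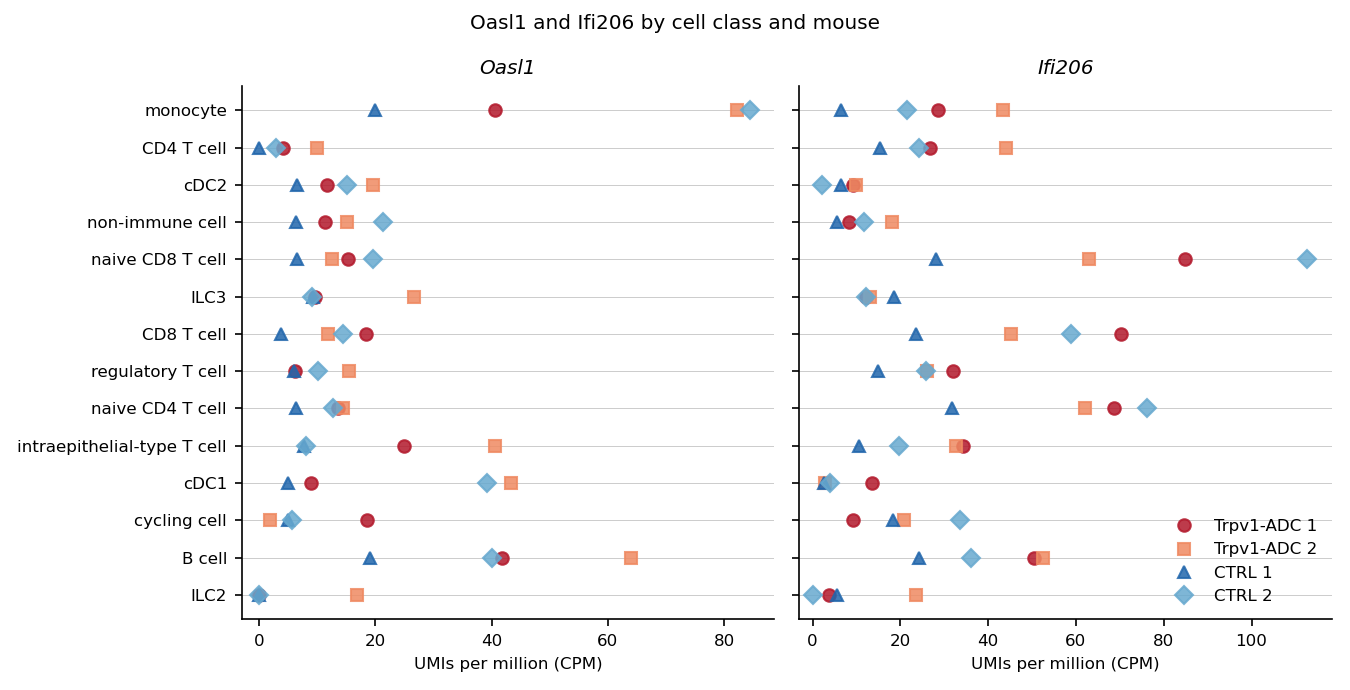
Oasl1 (left) and Ifi206 (right) in CPM in each tested class (rows) and mouse (symbols). In intraepithelial-type T cell-like cells Oasl1 lies at 24.9 and 40.7 CPM in Trpv1-ADC mice, against 7.65 and 8.13 CPM in CTRL mice.

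Cells with several core transcripts were a small share of all. A cell was counted as carrying the signature if at least 3 of the 16 core members had a UMI after its counts were thinned to 3000 UMIs. By that rule 162 of 4183 cells of Trpv1-ADC 1 (3.87%, exact 95% Clopper-Pearson interval 3.31 to 4.503) and 157 of 4338 cells of Trpv1-ADC 2 (3.62%, 3.08 to 4.22) carried it. In CTRL 1 these were 52 of 3993 cells (1.30%, 0.974 to 1.70) and in CTRL 2 142 of 3887 cells (3.65%, 3.09 to 4.29). Such intervals cover counting error only. CTRL 1 lay below the other three mice, which agreed within their intervals. The means were 3.75% ± 0.179 in Trpv1-ADC and 2.48% ± 1.66 in CTRL mice (SD, n = 2), and the difference of 1.27 points had an exact two-sided permutation p of 0.667, where 0.333 is the smallest that 2 against 2 mice allow. Without CTRL 1 the difference was 0.0928 points and without CTRL 2 it was 2.44 points. Unthinned, the shares were 8.44% and 8.67% in Trpv1-ADC mice, against 4.01% and 8.19% in CTRL mice. Thinning left out 247 and 193 cells of Trpv1-ADC mice and 400 and 278 cells of CTRL mice that were too shallow. Just below the rule, 206 and 263 cells of Trpv1-ADC mice and 119 and 218 cells of CTRL mice had 2 core members, while 63 and 89 cells of Trpv1-ADC mice and 22 and 72 cells of CTRL mice had exactly 3.

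The 24 members not used in that rule were all higher in carrying than in other cells in every mouse, with a median ratio of 5.07 and a range of 1.95 (Irf9) to 8.62 (Ifi204). Monocyte-like cells, where Ifi204 was highest, made up 11.1% of carrying cells and 2.57% of all cells at that depth. With the other cells brought to the class make-up of carrying cells, a choice made after seeing the data, the median ratio was 3.61 and the range 1.63 (Irf9) to 6.33 (Isg20), with Ifi204 at 2.72. Median depths of carrying and other cells were alike in Trpv1-ADC 2 (5720 and 5727 UMIs) and differed most in CTRL 1 (7202.5 and 5930).

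Carrying cells occurred in most classes at unequal rates. The rate was 50.9% (88 of 173) in a T cell cluster left unnamed, whose leading genes are the interferon-induced Iigp1, Slfn5, Mx2, Gbp2 and Irgm1. It was 13.5% (57 of 421) in monocyte-like, 3.44% (81 of 2357) in naive CD8 T cell-like and 1.77% in B cell-like cells, and 0.689% (10 of 1451) in intraepithelial-type T cell-like cells. Among monocyte-like cells 12.8% and 29.8% carried it in Trpv1-ADC mice, against 6.76% and 14.5% in CTRL mice. Among naive CD8 T cell-like cells it was 4.57% and 2.18% in Trpv1-ADC mice, against 0.633% and 8.15% in CTRL mice, so CTRL mice held both extremes. The unnamed cluster had 49 and 58 cells in Trpv1-ADC mice, against 8 and 60 in CTRL 1 and CTRL 2. It supplied 13.4% and 5.22% of the core UMIs of Trpv1-ADC mice, against 0.947% and 8.50% of those of CTRL mice. With it left out, a choice made after seeing the data, the shares of carrying cells were 3.0% and 3.2% in Trpv1-ADC mice, against 1.28% and 2.95% in CTRL mice. Its size was not tested, since genes of the interferon response define it.

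**Figure D5:**
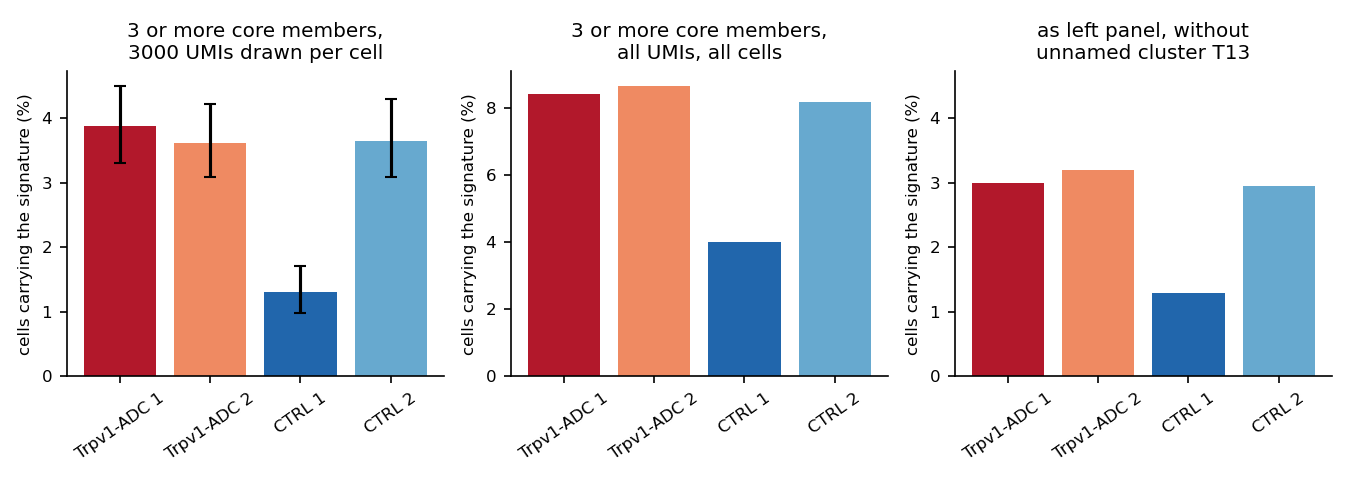
Share of cells carrying the signature in each mouse: thinned to 3000 UMIs with exact 95% intervals (left), with all UMIs (centre), and thinned without the unnamed interferon-led T cell cluster (right). The centre panel has its own scale, and CTRL 1 is the lowest bar in each panel.

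Of the genes upstream, the ligands were nearly absent. Of 20 type I and III interferon genes in the files, 5 had any UMI, 20 UMIs in all, of which Ifnb1 held 3. Plasmacytoid dendritic cells, the main interferon alpha producers, were few. The plasmacytoid dendritic cell-like cluster of the finer clustering held 31 cells, 9 and 5 from Trpv1-ADC mice and 10 and 7 from CTRL mice, all in the cDC2-like class above. Its Siglech UMIs came mostly from CTRL mice (24 and 40, against 1 and 4 in Trpv1-ADC mice). Over all cells, 6 had a UMI of at least 2 of Siglech, Klk1 and Cox6a2. Over all cells Ifnar1 had 88.6 and 98.1 CPM in Trpv1-ADC mice, against 103 and 99.5 CPM in CTRL mice (-0.10, edgeR adjusted p = 0.489). Ifnar2 had 70.9 and 64.5 CPM in Trpv1-ADC mice, against 65.0 and 65.8 CPM in CTRL mice (0.06, edgeR adjusted p = 0.687). Ifng, the type II interferon, had 18.9 and 20.3 CPM in Trpv1-ADC mice, against 16.9 and 25.7 CPM in CTRL mice, with overlap.

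Over all cells edgeR called 0 of the 140 pathway list genes tested, beside 0.245% of all genes. At an unadjusted p under 0.05 it gave 36, beside 18.2% of all genes. DESeq2 called 15, of which 8 were heat shock genes, beside 4.62% of all genes to which it gave an adjusted p. Of 51 further type I interferon-induced genes 38 were positive (median 0.20), of 28 interferon gamma-induced genes 22 (median 0.15), of 10 receptors and kinases 5 (median 0.01), of 18 sensors and adaptors 10 (median 0.03) and of 10 feedback inhibitors 6 (median 0.04). The list of interferon gamma and its inducers went the other way, with 1 of 10 positive (median -0.29). CTRL 1 was the lowest mouse in 37 of the 51 and in 23 of the 28. Heat shock genes were also higher on average: 12 of 14 were positive (median 0.44), and they summed to 11290 and 13200 CPM in Trpv1-ADC mice, against 8177 and 10030 CPM in CTRL 1 and CTRL 2. CTRL 1 was lowest in 12 of those 14. Their part in the members' values was not tested.

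In intraepithelial-type T cell-like cells, where 8.0% of all genes were called in either direction and 4.0% as higher, the receptors split. Ifnar2 rose, with 75.4 and 97.3 CPM in Trpv1-ADC mice, against 51.5 and 44.4 CPM in CTRL mice (0.78 ± 0.17, edgeR adjusted p = 0.0155, 0.111 without CTRL 2). Ifnar1 fell, with 58.4 and 59.2 CPM in Trpv1-ADC mice, against 107 and 86.0 CPM in CTRL mice (-0.77 ± 0.16, edgeR adjusted p = 0.0143, 0.131 without CTRL 1). Ifngr1, the interferon gamma receptor chain, fell too, with 549 and 377 CPM in Trpv1-ADC mice, against 999 and 950.3 CPM in CTRL mice (-1.13 ± 0.17, edgeR adjusted p = 0.00498). Of 10 feedback inhibitors 3 fell, the phosphatase Ptpn1 (-0.70) and the cytokine signalling suppressors Socs1 (-0.89) and Socs3 (-0.80). Socs1 had 97.5 and 66.3 CPM in Trpv1-ADC mice, against 137 and 156 CPM in CTRL mice (edgeR adjusted p = 0.00985). Socs3 did not pass without CTRL 2 (edgeR adjusted p = 0.0718). Of 43 further type I interferon-induced genes tested there, Trim34a and Sp100 rose by 1.49 and 0.57 (edgeR adjusted p = 0.0167 and 0.0289). Trim34a did not pass without CTRL 1, nor Sp100 without Trpv1-ADC 2 or either CTRL mouse. Of 14 heat shock genes 4 rose, among them the co-chaperone Bag3 (703 and 553 CPM in Trpv1-ADC mice, against 186 and 195 CPM in CTRL mice). Their part in the Oasl1 value was not tested. Further list genes past the test there were Irf8 (35.6 and 40.7 CPM in Trpv1-ADC mice, against 59.2 and 63.2 CPM in CTRL mice) and Stat4, an interleukin 12 signal transducer (512 and 347.5 CPM in Trpv1-ADC mice, against 748 and 717 CPM in CTRL mice), which fell. The guanylate-binding protein genes Gbp5 and Gbp8 rose, by 1.39 and 0.61 (edgeR adjusted p = 0.0258 and 0.0191). Irf8, Gbp5 and Gbp8 did not pass without CTRL 1 or without CTRL 2.

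Outside that class, Slfn9, an interferon-induced gene of the Schlafen family, rose in B cell-like cells. It had 15.6 and 23.3 CPM in Trpv1-ADC mice, against 3.51 and 3.52 CPM in CTRL mice (2.45 ± 0.33, edgeR adjusted p = 0.00947). It rose also in naive CD4 T cell-like cells, with 17.7 and 10.6 CPM in Trpv1-ADC mice, against 1.71 and 2.48 CPM in CTRL mice (2.77 ± 0.38, edgeR adjusted p = 0.00389), where the test called 0.118% of all genes. In both, the CTRL mice were alike. Whether interferon caused the Slfn9 difference was not tested. The groups did not overlap within either naive CD4 cluster, with 17.4 and 10.3 CPM in Trpv1-ADC mice, against 1.43 and 1.96 CPM in CTRL mice, in the first, and 18.2 and 10.8 CPM in Trpv1-ADC mice, against 3.38 and 3.84 CPM in CTRL mice, in the second. Cxcl9, a chemokine that attracts activated T cells, rose in cDC2-like cells, with 100.1 and 113 CPM in Trpv1-ADC mice, against 24.5 and 28.2 CPM in CTRL mice (2.04 ± 0.33, edgeR adjusted p = 0.0189, where the test called 0.164% of all genes). It did not pass with mouse number as a block (edgeR adjusted p = 0.0917). Over all cells Cxcl9 had 281 and 644 UMIs in Trpv1-ADC mice, against 381 and 938 UMIs in CTRL mice, with overlap.

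Other pathway genes passed the test in the classes below, and each missed the threshold there in at least 1 alternative. Of them, Ifngr1, Irf8, Stat4 and Gbp5 also passed in intraepithelial-type T cell-like cells, in the same direction. In regulatory T cell-like cells, where 0.479% of all genes were called, Ifngr1 fell (692 and 592 CPM in Trpv1-ADC mice, against 919.5 and 897 CPM in CTRL mice). The phosphatase Ptpn6, which dampens cytokine signals, rose there by 1.00 (edgeR adjusted p = 0.0417). Neither passed without CTRL 1 or without CTRL 2, and Ptpn6 did not without Trpv1-ADC 1. In ILC3-like cells, where 0.867% were called, Irf8 and Stat4 fell by 0.73 and 0.54 on the log2 scale, and Stat4 did not pass without CTRL 2 (edgeR adjusted p = 0.12). In the finer ILC3-like class Irf8 was at 0.07 and Stat4 at -0.17, and neither passed. In cDC1-like cells, where 1.33% were called, Ciita, which switches on MHC class II genes, rose by 0.86 (edgeR adjusted p = 0.0349) and did not pass without CTRL 1 or without CTRL 2. In cycling cells, where 0.408% were called, Gbp5 rose by 2.87 and did not pass without Trpv1-ADC 2 (edgeR adjusted p = 0.276). The T lineage cluster formed 74.1% and 70.4% of cycling cells in Trpv1-ADC mice, against 59.4% and 52.6% in CTRL mice. Over the whole T lineage, where 2.42% of all genes were called, Slfn9 rose by 1.48. Irf8 (-0.78), Il12rb2 (-0.55), Ifngr1 (-0.48), Il18rap (-0.70), Il18r1 (-0.35) and Hspa5 (-0.34) fell there (edgeR adjusted p 0.000786 to 0.0451). Over the whole myeloid lineage, where 0.157% were called, the heat shock genes Hspa1a, Hspa1b, Bag3 and Hsph1 rose. In such sums, more cells of a type and more RNA per cell cannot be told apart.

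Heat shock genes rose in 8 of the 14 tested classes, with 6 of 14 genes up in ILC3-like cells (0.867% of all genes called), 6 in cDC1-like cells (1.33%), 4 in intraepithelial-type T cell-like cells (8.0%), and 1 to 3 in 5 other classes: monocyte-like (0.202%), CD8 T cell-like (0.18%), naive CD8 T cell-like (0.0376%), cDC2-like (0.164%) and cycling cells (0.408%). In cDC1-like cells Hspa5, the chaperone of the endoplasmic reticulum, fell, with 1072 and 1100 CPM in Trpv1-ADC mice, against 1593 and 1842 CPM in CTRL mice (-0.70 ± 0.13, edgeR adjusted p = 0.00672). In cDC1-like cells Hspa1a, the inducible HSP70 chaperone, had 2565 and 2611 CPM in Trpv1-ADC mice, against 709 and 735.5 CPM in CTRL mice (1.80 ± 0.12, edgeR adjusted p = 1.95e-08). In the same cells edgeR called 0 of 19 members tested, as did DESeq2, which gave 10 of them no adjusted p, 2 had an unadjusted p under 0.05 beside 10.6% of all genes, and their median log2 fold change was 0.28.

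The genes whose level went most closely with the summed core members were mostly interferon-induced. Over 56 sums (14 classes in 4 mice), each centred on its class mean on the log2 scale, Pearson's r was 0.84 for Rnf213, 0.77 for Dtx3l, 0.72 for Mndal, 0.68 for Cxcl10 and 0.67 for Sp100, among the highest of 3847 genes compared, whose median r was -0.03. They were followed by the heat shock genes Hspa1a (0.64), Hsph1 (0.63) and Hspa1b (0.63), and the immunoproteasome gene Psmb9 (0.63). These points share a library and their mice, and the values are a description.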

How the data were processed

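The deposited UMI counts, whole numbers per gene symbol and barcode, and the hashtag counts were made by the authors with Cell Ranger, with Seurat and build mm10 also named, per the submitters' processing notes. Versions, strand setting and doublet handling are not given in the sources used here. The labels name both a 5' and a 3' v3 chemistry. Whether hashtag counts are reads or molecules is not stated.

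From 23063 barcodes, 22729 with at least 500 UMIs, 200 genes and at most 10% mitochondrial UMIs were used. A mouse was assigned where its tag had at least 10 counts and 3 times the next. This left out 2997 tag doublets and 161 untagged barcodes. Scrublet (threshold 0.375) then called 6.89% and 10.1% of the cells of Trpv1-ADC mice, against 14.2% and 10.5% of those of CTRL mice, and 45.2% of tag doublets. Cells were clustered with scanpy 1.11.5 (2000 variable genes without the members, 30 components, 15 neighbours, Leiden resolution 1) and named from 270 markers. UMIs were summed per mouse and class. Sums were tested with edgeR 4.0.16 in R 4.3.3 (TMM, filterByExpr, quasi-likelihood) over all genes, with adjusted p under 0.05 as the threshold. CPM is UMIs per 1000000 UMIs of the same cells. Tested classes held 27 to 954 cells and 261452 to 5467658 UMIs per mouse.

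The members, the 8 pathway lists and the markers were chosen with earlier results of these data known. Named were all members past the threshold, the 10 with most UMIs, Ifnar1, Ifnar2 and Ifng, list genes past the threshold, and, of the 10 genes most like the core sum, all but an item that is not reported here. Other members were picked after their values were seen, to show each role. Alternatives were DESeq2 1.42.0, RLE size factors, no count filter, HTODemux (Seurat 5.3.0), tag doublets only, Leiden resolution 2, other variable genes, mouse number as a block, and leaving out each mouse. The scripts were tested on simulated counts.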

Additional observations from a re-analysis of the deposited data

Results flagged for a closer look

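Oasl1 was marked for a closer look because its difference between Trpv1-ADC and CTRL mice was not the same in intraepithelial-type T cell-like cells as in all other cells, by a test of that difference itself. That test was run because Oasl1 had already passed in those cells, on the same counts, so it adds no independent support. The log2 fold change was 1.96 in intraepithelial-type T cell-like cells, and the excess over the other cells was 1.58 ± 0.33 (edgeR interaction test, adjusted p = 0.00268). Without CTRL 2 the excess was 1.04 and did not pass. Oasl1 was higher in 2 of 2 Trpv1-ADC mice than in either CTRL mouse. The values rest on 35 and 46 UMIs in Trpv1-ADC mice, against 19 and 26 UMIs in CTRL mice.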

How the results depend on the processing

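Of the 40 members 11 were under 10 CPM on average, and groups held 2 mice each. Over all cells the main test called 0 members, DESeq2 called 2, edgeR without the count filter called 1, and leaving out a mouse gave 0 to 3. Member and class pairs past the threshold were 2 in the main test, 1 with DESeq2, 28 without the count filter, 1 with only tag doublets removed, 8 at Leiden resolution 2, 4 with all interferon lists kept from the variable genes, and, with edgeR and its count filter, 0 over whole T and myeloid lineages. Leaving out a mouse gave 6 (without CTRL 1) to 70 (without CTRL 2) pairs, 32 without Trpv1-ADC 1 and 10 without Trpv1-ADC 2. Without CTRL 1, Mx1 fell in CD8 T cell-like, Ifi35 in ILC3-like, and Ifi206 and Ifit1 in naive CD8 T cell-like cells. Without CTRL 2 all pairs rose. In intraepithelial-type T cell-like cells Oas1a fell without Trpv1-ADC 1, and Isg15 and Stat2 fell without Trpv1-ADC 2. Without the count filter Ifi35 fell in ILC3-like and Ifit1 in non-immune cells. With HTODemux the pairs were Oasl1 and Ifi206 in intraepithelial-type T cell-like cells and Ifi203 in regulatory T cell-like cells. Shares of all genes are not given for these pair counts, and calls over all genes changed with the setting too. In B cell-like cells the main test called 8 genes higher and 4 lower of 10600. Without the count filter it called 173 higher and 57 lower of 22886 there, with 11 of the 28 pairs. Over all genes and all cells, 46 were called in the main test, 699 by DESeq2, and 347 higher and 710 lower without the count filter. In intraepithelial-type T cell-like cells Ifi206 did not pass with only tag doublets removed (0.82, edgeR adjusted p = 0.0926) or with the members among the variable genes (0.86, 0.277), where the larger cluster lost its name and Oasl1 and Ifi203 were called in it. The Oasl1 class excess was between 1.04 (without CTRL 2, where it did not pass) and 1.92. Positive members numbered 28 to 39 with a mouse left out. The causes were not tested.

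Fold changes over all cells that changed sign when a mouse was left out, with their range, were those of Ifit1 (-0.20 to 1.04), Isg15 (-0.0879 to 0.68), Isg20 (-0.0733 to 0.39), Oas1a (-0.19 to 0.33), Rsad2 (-0.21 to 0.55), Irf7 (-0.12 to 0.43), Ifi35 (-0.0763 to 0.28), Dhx58 (-0.0809 to 0.45), Zbp1 (-0.0734 to 0.63), Rtp4 (-0.0210 to 1.08) and Cmpk2 (-0.0441 to 0.64), each lowest without CTRL 1. Ifit1 was also negative without Trpv1-ADC 1 (-0.0450), and Rsad2 without Trpv1-ADC 2 (-0.0121). Ifnar2 ranged from -0.0017 (without Trpv1-ADC 1) to 0.13, and Ifng from -0.38 to 0.23 (without CTRL 2). Irf8 in ILC3-like cells was 0.068 at Leiden resolution 2.

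Mouse numbers did not pair the samples (correlation of same-numbered mice 0.06 over all cells). With mouse number as a replicate block, 0 members were called over all cells, beside 85 genes higher and 388 lower. By class 22 member and class pairs were called. Of these, 11 were in B cell-like cells, beside 138 genes higher and 58 lower of 10600 there. Cxcl9 in cDC2-like cells did not pass with the block (edgeR adjusted p = 0.0917).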
